A study of Homo sapiens with 3 samples.

Results

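Described here are 8 genes of the Notch signalling pathway, chosen by name: the receptors NOTCH1, NOTCH2 and NOTCH3, the ligands JAG1, JAG2 and DLL1, and the target genes HES1 and HEY1. They are 8 of 60506 genes that the files list on chromosomes. The cells were HaCaT, an immortalized human keratinocyte line, transfected with 10 nM of siRNA using a lipid reagent. There were 3 libraries: a control siRNA (labelled WT), and SRSF5 siRNA No.1 and SRSF5 siRNA No.2 (both labelled SRSF5 knockdown), called siRNA 1 and siRNA 2 here. SRSF5 encodes an RNA-binding protein that takes part in splice site choice. The control therefore had n = 1 and the SRSF5 siRNA group n = 2, with a different siRNA in each library. The time between transfection and harvest is not given in the sources used here, and nothing says that the libraries came from separately repeated cultures.

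Notch signalling passes between touching cells. A ligand of the Jagged or Delta-like family on 1 cell binds a Notch receptor on its neighbour, ADAM proteases and gamma-secretase then cut the receptor, and its inner part moves to the nucleus. There it joins the DNA-binding protein RBPJ and switches on genes such as those of the HES and HEY repressors. In epidermis the pathway is known for promoting the exit of keratinocytes from the basal layer.

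The values are FPKM, a read density scaled by transcript length and library depth, 1 per listed transcript. A sequenced base counts toward every transcript that it overlaps, so the transcripts of a gene share reads. The summed FPKM of a gene is used for ratios, and the FPKM of single transcripts for comparing levels between genes, since only these are per length. The depth behind the largest transcript of every gene added up to between 15862004 and 18321703 equivalents of a 100-base read per library. The targeted gene SRSF5 had summed FPKM of 94.1 (control), 44.3 (siRNA 1) and 18.7 (siRNA 2). It thus stood at 47.1% and 19.8% of the control with siRNA 1 and siRNA 2. The share of base overlaps on mitochondrial transcripts was 14.0%, 15.1% and 10.2%. All 10 keratinocyte markers were measured, with a summed highest-transcript FPKM of 1545, 1915 and 3301, of which KRT14 alone held 382, 554 and 1670. With siRNA 1, 2 of the 10 were at least 1.5-fold higher, beside 6.18% of all genes with a mean summed FPKM of at least 1. With siRNA 2, 6 were, beside 13.2%. With either siRNA 0 were lower, beside 5.47% of all genes with siRNA 1 and 10.1% with siRNA 2. The summed highest-transcript FPKM was 0.827, 1.72 and 1.79 for 7 fibroblast markers, 0.705, 0.586 and 0.789 for 5 endothelial ones and 0.0908, 0.0647 and 0.124 for 5 melanocyte ones. By summed FPKM the fibroblast gene COL1A1 was more than 1.5-fold higher with both siRNAs (2.51, 5.02 and 4.89), as was the ligand DLL1, and the endothelial gene CDH5 was lower with both (3.08, 0.693 and 1.24). The melanocyte genes MLANA, TYR and TYRP1 were listed at 0 in the 3 libraries. Of the 5 immune markers 4 stayed below 1 FPKM, and CD68, which is not restricted to immune cells, was at 14.6, 10.1 and 8.80. The part of these markers in the results was not tested. In bulk RNA, fewer cells that use a gene and less of its RNA per cell cannot be told apart.

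NOTCH1, NOTCH2, JAG1, JAG2 and HES1 were the members with the higher levels in control cells. By the FPKM of the longest coding transcript, HES1 had a mean of 18.1 ± 2.63 (SD over 3 libraries) and NOTCH1 of 17.9 ± 4.36. JAG1 followed at 14.4 ± 2.39, NOTCH2 at 11.8 ± 1.67, JAG2 at 9.09 ± 3.57 and DLL1 at 4.59 ± 2.04. HEY1 (0.304 ± 0.0553) and NOTCH3 (0.158 ± 0.0718) were far below. These SDs hold the difference between siRNAs as well as any technical spread. From HES1 down to DLL1 the range of each gene over the libraries overlapped that of the next. Within every library, NOTCH1 stood above JAG1 and JAG1 above NOTCH2. The other neighbouring pairs down to DLL1 changed order between libraries. DLL1 and HEY1 did not overlap, and neither did HEY1 and NOTCH3. NOTCH1 ranked first in the control and with siRNA 1, and HES1 ranked first with siRNA 2.

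**Figure D1:**
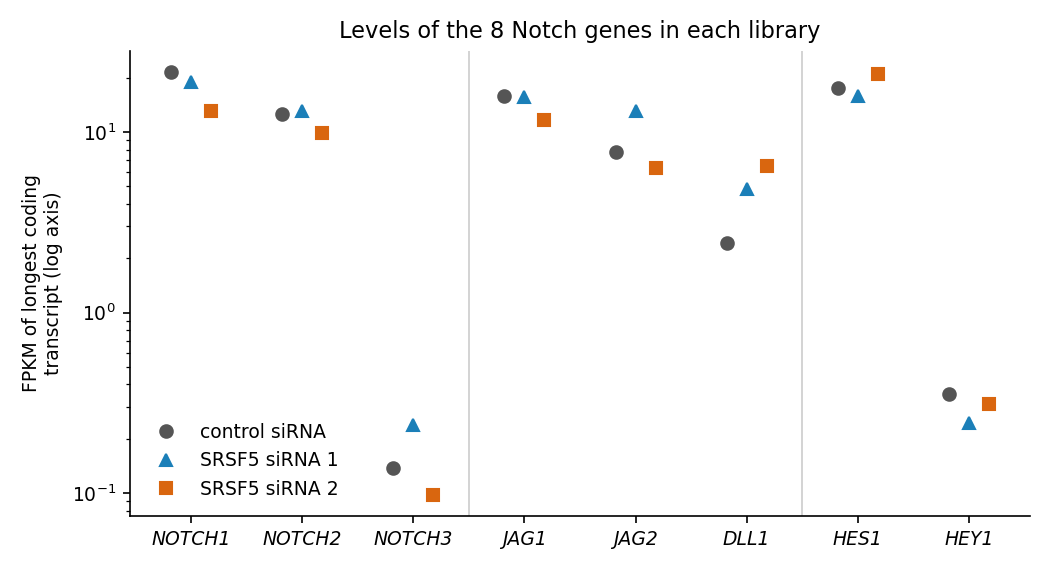
FPKM of the longest coding transcript of each of the 8 Notch genes (log axis), 1 point per library, with receptors left, ligands centre and targets right. NOTCH3 and HEY1 lie below 0.4 FPKM in every library, and DLL1 is the gene whose siRNA points both lie well above the control, at 4.84 and 6.50 against 2.44.

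Of the 8 genes, 7 passed the filter of a mean summed FPKM of at least 1. NOTCH3, with a mean of 0.844, did not and enters no count. On the scale log2(summed FPKM + 1), which understates differences of low genes, 1 of the 7 was at least 1.5-fold higher than the control in both siRNA libraries. That gene was DLL1, a ligand. Among all 13923 genes tested, 3.19% were that much higher in both, and 1.47% that much lower, where the Notch count was 0 of 7. The median log2 ratio of the 7 genes was 0.01 with siRNA 1 and -0.30 with siRNA 2, beside -0.02 and 0.05 over all genes tested. The spread in limma came from the difference between the siRNAs, shared in part across genes. With it, 0 of the 7 genes and 0% of all genes were called (threshold 0.05 after Benjamini-Hochberg adjustment). At an unadjusted p below 0.05 limma gave 1 of the 7, DLL1, and 416 of the 13923 genes. Without the filter on low values limma gave 0 of the 8 Notch genes and 1395 of 34944 genes at that unadjusted threshold. A robust fit called 3 genes, 0 of them among the 7. An exact permutation test of 1 library against 2 cannot go below p = 0.33.

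DLL1 is the Delta-like ligand of the set (ENSG00000198719.9, chromosome 6, 170282206 to 170306565, minus strand, GRCh38). Summed FPKM of DLL1 was 3.95 in control cells, 7.65 after siRNA 1 and 10.1 after siRNA 2. Both siRNA libraries lay above the control, and that with siRNA 2 was the higher. The coding transcript DLL1-201, the highest of the gene among those on chromosomes, was at 2.44, 4.84 and 6.50 FPKM from 410.5, 773 and 1014 read equivalents. The ratio of these was 1.99 (95% counting interval 1.76 to 2.25) with siRNA 1 and 2.67 (2.38 to 3.004) with siRNA 2. Such intervals cover counting error only and say nothing of how repeated transfections would vary. On the scale log2(summed FPKM + 1) the difference was 0.98 ± 0.25 (SD, n = 2), with 0.81 for siRNA 1 and 1.16 for siRNA 2. In limma it had an SE of 0.44 and a Benjamini-Hochberg adjusted p of 1.00, with an unadjusted p of 0.045. The shorter coding transcript DLL1-202, at 1.51, 2.82 and 3.57 FPKM, shares reads with DLL1-201 and is not separate evidence.

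JAG2 encodes a Jagged ligand (ENSG00000184916.9, chromosome 14, 105140982 to 105168824, minus strand). The summed FPKM stood at 42.0 for control siRNA, 71.8 for siRNA 1 and 34.0 for siRNA 2. The siRNA 1 library was the high one, while siRNA 2 lay slightly below the control. The highest transcript, JAG2-203, annotated as a retained intron, was at 11.0, 18.3 and 8.96 FPKM. Its ratio to the control was 1.66 (counting interval 1.54 to 1.79) with siRNA 1 and 0.814 (0.744 to 0.891) with siRNA 2. Between the siRNAs it was 0.489 (0.450 to 0.532), siRNA 2 over siRNA 1. Both intervals against the control exclude equal levels, on opposite sides. The coding transcript JAG2-201, at 7.77, 13.1 and 6.36 FPKM, gave 1.69 and 0.818. JAG2 was the 1 gene of the 7 at least 1.5-fold lower with siRNA 2 than with siRNA 1, as were 10.5% of all genes. Of the 7 genes 0 were that much higher with siRNA 2 than with siRNA 1, against 13.7% of all genes. All 5 listed JAG2 transcripts had ratios of 1.66 to 1.82 with siRNA 1 and 0.784 to 0.825 with siRNA 2. The noncoding gene AL512356.1 lies on the same strand and shares 469 of its 535 bases with JAG2 exons. It was at 13.3, 22.6 and 10.6 FPKM, and its reads cannot be told apart from those of JAG2.

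JAG1 encodes the other Jagged ligand (ENSG00000101384.12, chromosome 20, 10637684 to 10673999, minus strand). Across control, siRNA 1 and siRNA 2 its summed FPKM was 87.2, 87.9 and 61.8. The control and siRNA 1 were alike in level and siRNA 2 was the low one. The highest transcript, JAG1-206, annotated as a retained intron, was at 24.8, 24.4 and 16.7 FPKM. Its ratio was 0.982 (counting interval 0.877 to 1.10) with siRNA 1 and 0.672 (0.593 to 0.764) with siRNA 2. The latter interval excludes equal levels in these 2 libraries, and on the summed scale the gene was less than 1.5-fold from the control. The coding transcript JAG1-201, at 15.9, 15.7 and 11.6 FPKM, gave 0.990 and 0.734.

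The mix of ligand RNA differed between the libraries, which have no replicates. By the longest coding transcripts, JAG1 made up 60.8% of the FPKM of the 3 ligands in control cells, 46.6% after siRNA 1 and 47.5% after siRNA 2. DLL1 made up 9.35%, 14.4% and 26.5%, and JAG2 29.8%, 39.0% and 25.9%. JAG1 thus stood 6.51-fold above DLL1 in the control and 3.25-fold and 1.79-fold above it with siRNA 1 and siRNA 2. The summed FPKM of the 3 ligands was 26.1, 33.7 and 24.5. The other Delta-like genes were near the floor, with highest-transcript FPKM below 1 in every library for DLL3 and DLL4.

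**Figure D2:**
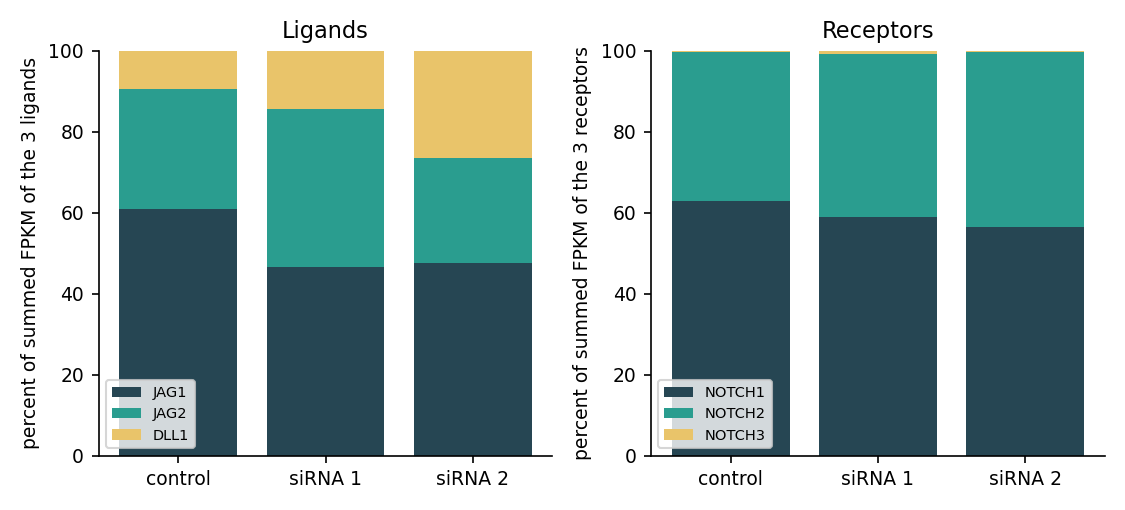
Share of each ligand (left) and receptor (right) in the summed FPKM of the longest coding transcripts, 1 bar per library, without replicates. The DLL1 share is 9.35% in the control and 26.5% with siRNA 2, while NOTCH1 holds 56.6% to 63.0% of the receptor FPKM in each library.

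NOTCH1 encodes a receptor known for its role in keratinocyte differentiation (ENSG00000148400.12, chromosome 9, 136494433 to 136546048, minus strand). NOTCH1 had summed FPKM of 56.5 (control), 49.6 (siRNA 1) and 34.2 (siRNA 2). Both siRNA libraries lay below the control and siRNA 2 was the lowest. The coding transcript NOTCH1-205, the highest of the gene, was at 21.5, 19.0 and 13.0 FPKM from 9186, 7680 and 5147 read equivalents. Its ratio was 0.882 (counting interval 0.855 to 0.909) with siRNA 1 and 0.605 (0.585 to 0.626) with siRNA 2. The log2 difference of summed FPKM + 1 was -0.45 ± 0.37 (SD, n = 2), smaller than 1.5-fold with siRNA 1 (-0.19) and larger with siRNA 2 (-0.71). In limma its SE was 0.40 and its Benjamini-Hochberg adjusted p 1.00.

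NOTCH2 (ENSG00000134250.20, chromosome 1, 119911553 to 120100779, minus strand) had summed FPKM of 34.8, 36.5 and 28.1. The siRNA 2 library was again the low one and the control and siRNA 1 were close. NOTCH2-201, its full coding transcript, was at 12.5, 13.0 and 9.90 FPKM. The ratios were 1.04 (counting interval 1.01 to 1.08) and 0.792 (0.762 to 0.822). Human chromosome 1 also carries partial copies of NOTCH2, and reads of the shared part are uncertain. The copies NOTCH2NLA, NOTCH2NLB, NOTCH2NLC and NOTCH2NLR were found, the last 3 by Ensembl identifier. Of the 3 that were tested 0 were 1.5-fold from the control with either siRNA. Over all genes tested, 6.18% were higher and 5.47% lower with siRNA 1, and 13.2% and 10.1% with siRNA 2. NOTCH2NLA, the highest, was at a summed 3.15, 2.73 and 3.11 FPKM. NOTCH3 (ENSG00000074181.9, chromosome 19, 15159038 to 15200995, minus strand) was low, with summed FPKM of 0.808, 1.06 and 0.666. Its coding transcript NOTCH3-201 held 53.6, 87.3 and 35.2 read equivalents. The ratio was 1.72 (1.20 to 2.43) with siRNA 1 and 0.709 (0.444 to 1.09) with siRNA 2. By its highest transcript, NOTCH3-203, with 8.83, 9.17 and 6 read equivalents, the siRNA 1 ratio was 1.10 (0.371 to 2.998), so no difference in NOTCH3 was detectable by that transcript. NOTCH1 held 63.0%, 58.9% and 56.6% of the receptor FPKM and NOTCH3 at most 0.737%.

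**Figure D3:**
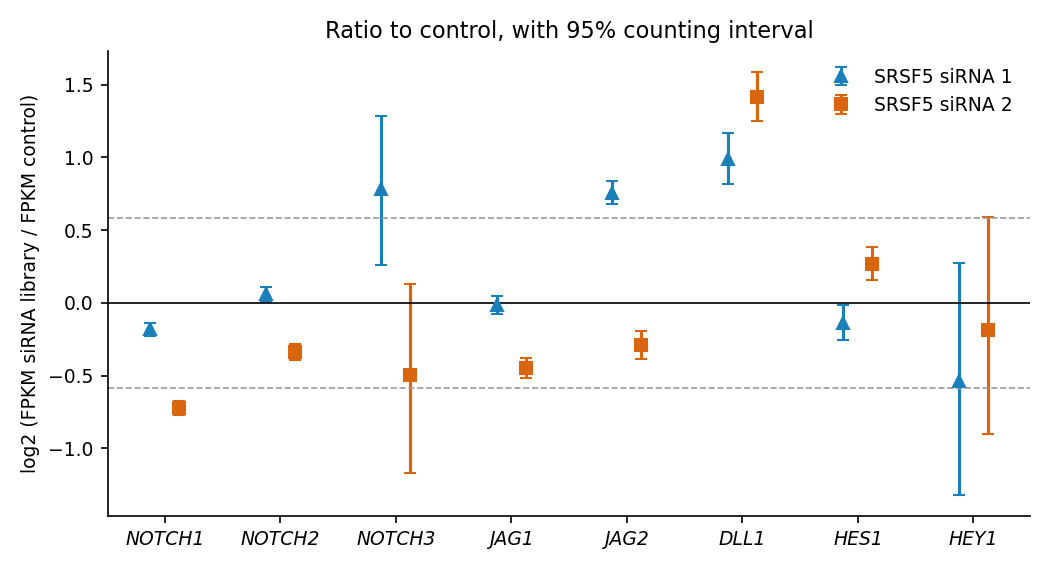
Log2 ratio of FPKM to the control for the transcript of each gene with the most bases, triangles for siRNA 1 and squares for siRNA 2, with 95% counting intervals as bars and dashed lines at 1.5-fold. DLL1 lies above the upper dashed line with both siRNAs, JAG2 and the low NOTCH3 with siRNA 1, and NOTCH1 lies below the lower line with siRNA 2, while the bars of HEY1 span 0.

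HES1 encodes a repressor of the basic helix-loop-helix class and is a widely used readout of Notch activity (ENSG00000114315.4, chromosome 3, 194136148 to 194138732, plus strand). Its promoter is shown because RBPJ, the Notch effector, is known to bind there and because HES1 protein is known to repress its own gene through N boxes. The 250 bases before the start of HES1 (RefSeq, GRCh38.p14, chr3:194135898-194136147, plus strand) are given with matches in capitals. The motifs searched on both strands were GTGGGAA for RBPJ and CACNAG for the N box, and these matches do not overlap.

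HES1 promoter: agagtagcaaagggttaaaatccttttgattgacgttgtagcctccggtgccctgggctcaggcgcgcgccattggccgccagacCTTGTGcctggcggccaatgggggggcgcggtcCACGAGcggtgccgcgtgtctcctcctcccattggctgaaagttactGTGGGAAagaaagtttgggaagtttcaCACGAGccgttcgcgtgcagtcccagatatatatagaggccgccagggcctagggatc

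The RBPJ match begins 85 bases before the start, and the 3 N box matches begin 165, 132 and 58 bases before it. Among 35116 promoters of the RefSeq table, 5.43% hold GTGGGAA and 32.0% hold CACNAG in the same window. Of the 8 genes 6 matched the table, all but DLL1 and HEY1. NOTCH1, NOTCH2, JAG1 and JAG2 held 0 matches of either motif, and NOTCH3 held 1 N box. A match describes the letters of this window and is not a measured binding site. RBPJ sites with letters other than GTGGGAA were not searched for, so the matches are not a count of such sites.

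HES1 was less than 1.5-fold from the control with either siRNA. Its summed FPKM was 36.5, 32.1 and 42.1 for control, siRNA 1 and siRNA 2. The siRNAs lay on either side of the control, siRNA 1 below and siRNA 2 above. The highest transcript, HES1-202, annotated as a retained intron, was at 19.1, 16.3 and 21.2 FPKM. Its ratio was 0.853 (counting interval 0.771 to 0.944) with siRNA 1 and 1.11 (1.01 to 1.22) with siRNA 2. The coding transcript HES1-201, at 17.4, 15.9 and 20.98 FPKM, gave 0.910 and 1.20. The log2 difference of summed FPKM + 1 was 0.01 ± 0.27 (SD, n = 2), less than the spread between the siRNAs. HES1-202 stood at 109%, 103% and 101% of HES1-201.

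HEY1 encodes a related repressor (ENSG00000164683.17, chromosome 8, 79764010 to 79767857, minus strand). It was low, with summed FPKM of 3.49, 2.24 and 3.13 over 8 transcripts. The siRNA 1 library was the lowest and siRNA 2 was close to the control. The highest transcript, HEY1-207, was at 0.699, 0.407 and 0.558 FPKM from 17.7, 9.78 and 13.1 read equivalents. Its ratios were 0.583 (counting interval 0.242 to 1.34) and 0.798 (0.351 to 1.68), so no difference was detectable at this depth. The coding transcript HEY1-201 gave 0.690 (0.401 to 1.21) and 0.879 (0.536 to 1.503).

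Read per siRNA, 2 of the 7 genes tested were at least 1.5-fold higher with siRNA 1, JAG2 and DLL1, against 6.18% of all genes, and 0 were lower, against 5.47%. HEY1, at 64.3% of the control in summed FPKM, was past 1.5-fold lower with siRNA 1 when 0.1 FPKM was added in place of 1 (log2 difference -0.62). With siRNA 2, 1 was higher, DLL1, against 13.2% of all genes, and 1 was lower, NOTCH1, against 10.1%. These comparisons share the 1 control library.

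The transcripts of a gene were compared with its highest transcript. Of 50 transcripts on chromosomes 46 held at least 5 read equivalents in every library. In NOTCH1 all 5 had ratios of 0.763 to 0.935 with siRNA 1 and 0.560 to 0.633 with siRNA 2. In JAG1 all 9 had ratios of 0.982 to 1.12 and 0.661 to 0.772. Taking for each transcript the smaller of its shifts with the siRNAs, where both had the same direction, the largest was 1.79 percentage points in JAG1, 1.47 in NOTCH1, 1.39 in NOTCH2 and 0.627 in JAG2. It was 3.93 points in DLL1, 6.10 in HES1 and 12.8 in HEY1, whose transcripts held as few as 9.05 read equivalents. In NOTCH3 no described transcript shifted the same way with both. Transcripts share reads, so isoform use cannot be read from these values.

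Coverage was uneven along NOTCH2 and JAG1 in every library. JAG1-209, whose bases all lie in exons of JAG1-201, stood at 45.7%, 47.2% and 42.0% of it. The noncoding transcript NOTCH2-205, whose 3′ end lies 10.9 kb from that of the gene, stood at 75.4%, 70.3% and 78.3% of NOTCH2-201. NOTCH2-202, at 23.7 kb, stood at 38.5%, 43.5% and 32.7%. NOTCH2-206, a coding transcript of the 5′ part that ends 38.9 kb away, stood at 11.2%, 10.8% and 11.3%. Described NOTCH2 transcripts farther than this stood at 1.52% to 11.0%. The part of the partial copies of NOTCH2 in these low levels was not tested. Only NOTCH2-213 lies wholly in exons of NOTCH2-201, and it stood at 7.55%, 8.94% and 11.0% of it. The other shorter NOTCH2 transcripts hold bases outside those exons. For these, intron bases and uneven coverage cannot be told apart. In NOTCH1 the farthest, NOTCH1-201 at 28.2 kb, annotated as a retained intron, stood at 51.3%, 50.8% and 53.4%. Every shorter NOTCH1 transcript is annotated as a retained intron or as noncoding. Intron bases and uneven coverage cannot be told apart in that gene. NOTCH2-213, the short 5′ transcript, had ratios of 1.23 and 1.15, unlike the full transcript, but held only 15.4, 18.1 and 16.5 read equivalents. The other described transcripts ending farther than NOTCH2-206 held 9.38 to 45.7. Among them, NOTCH2-210 (1.38 and 1.10) and NOTCH2-212 (1.15 and 1.02) also lay above the control with both siRNAs. NOTCH2-211 (1.15 and 0.947) and NOTCH2-204 (1.07 and 0.914) did so with siRNA 1 alone, and NOTCH2-207 (0.976 and 0.918) with neither.

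**Figure D4:**
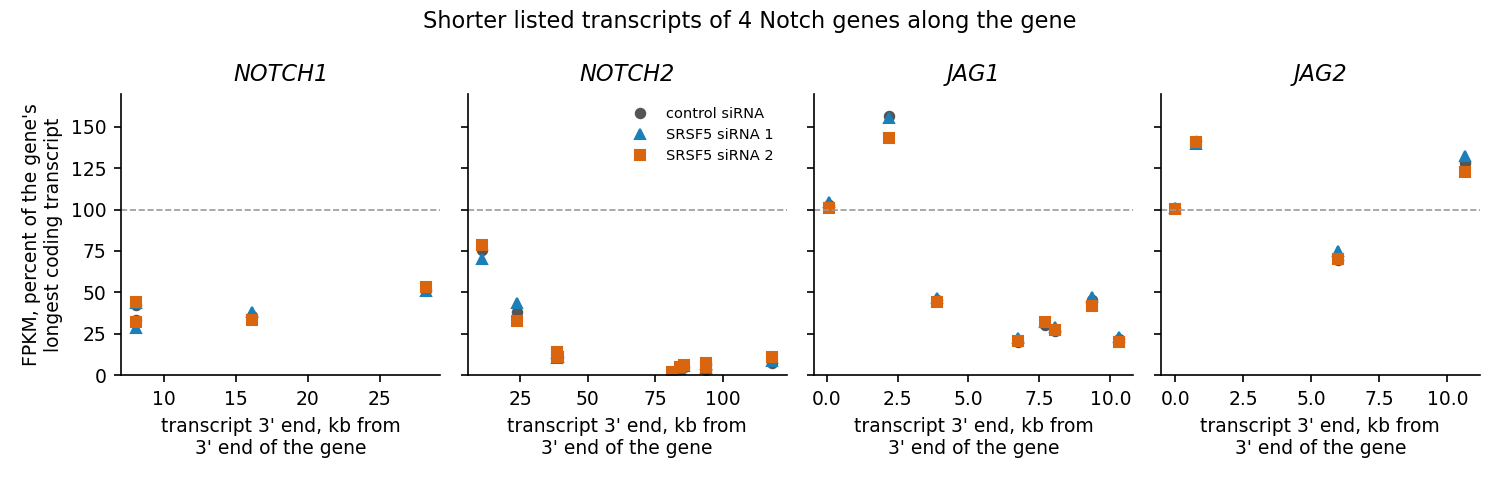
FPKM of the shorter described transcripts of NOTCH1, NOTCH2, JAG1 and JAG2 as a percent of the longest coding transcript of the gene (dashed line at 100), against the distance of their 3′ end from the 3′ end of the gene in kb, 1 point per library. In NOTCH2 the points go from 75.4% at 10.9 kb to 11.2% at 38.9 kb in the control. Both of these transcripts hold bases outside the exons of the longest coding transcript.

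Other genes of the pathway were taken from a list by role, 64 genes of which 51 were tested. Of these 2 were at least 1.5-fold higher in both siRNA libraries, APH1B and CDKN1A, or 3.92% beside 3.19% of all genes, and 0 were lower, beside 1.47%. With the highest transcript or the mean transcript as the gene level, and 1 FPKM added to these lower levels, 0 were higher. Their median log2 ratio was -0.01 with siRNA 1 and 0.18 with siRNA 2. With siRNA 1, 4 were higher and 2 lower, or 7.84% and 3.92% of them, beside 6.18% and 5.47% of all genes. With siRNA 2, 9 were higher and 4 lower, or 17.6% and 7.84%, beside 13.2% and 10.1%.

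Of the 8 genes for receptor cleavage, 1 was higher in both siRNA libraries, beside 3.19% of all genes, and 2 were lower with siRNA 2, beside 10.1%. APH1B, a gamma-secretase subunit, had summed FPKM of 0.945, 3.32 and 1.96, with log2 differences of 1.15 and 0.60. It is a low gene, and its transcript APH1B-201 held 17.6, 116 and 60.9 read equivalents, a ratio of 6.96 (counting interval 4.12 to 11.9) and 3.74 (2.14 to 6.58). The 2 lower genes are named after their values were seen. NCSTN, the nicastrin subunit of gamma-secretase, had summed FPKM of 84.7, 81.3 and 38.0. ADAM17, a protease that can shed Notch, was at 37.0, 37.6 and 16.6. Their siRNA 2 log2 differences were -1.14 and -1.11, against -0.06 and 0.02 with siRNA 1. ADAM10, the main protease for ligand-bound Notch and the highest of this role by single-transcript FPKM, was at a summed 212, 220 and 183.

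Of 6 genes for receptor glycosylation and maturation, 0 were apart in both libraries, beside 3.19% of all genes higher and 1.47% lower. In roles this small a count of 0 lies near these shares. FURIN, the convertase that cuts Notch on its way to the surface, was the highest by single-transcript FPKM. Its summed values were 78.9, 124 and 72.5, with siRNA 1 as the high library. Of 5 tested genes of the nuclear complex 0 were 1.5-fold away with either siRNA. Over all genes, 6.18% were higher and 5.47% lower with siRNA 1, and 13.2% and 10.1% with siRNA 2. SNW1, a coactivator that binds this complex, was at a summed 120, 120 and 143, and RBPJ itself at 18.9, 19.2 and 22.7. SPEN, the highest of 7 corepressors by single-transcript FPKM averaged over the libraries, was at a summed 54.5, 49.4 and 51.9. Of the 7 corepressors 0 were apart in both libraries, beside the same 3.19% and 1.47% of all genes. MIB1, the ubiquitin ligase that drives ligand endocytosis, was at a summed 10.7, 12.8 and 14.0. Of the 2 tested genes of that role 0 were 1.5-fold away with either siRNA, beside the shares given for the nuclear complex.

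Of 9 tested inhibitors and turnover genes, 0 were apart in both libraries, beside 3.19% of all genes higher and 1.47% lower. NRARP, a feedback inhibitor that is itself a Notch target, was the highest by single-transcript FPKM, at 13.0, 15.9 and 27.0 in its 1 transcript. Its log2 differences were 0.27 and 0.99, past 1.5-fold with siRNA 2 alone. Of the HES and HEY family 3 genes other than HES1 and HEY1 were tested, with 0 apart in both, beside the same shares. Among 8 further genes tied to Notch in keratinocytes, 1 was higher in both, beside 3.19% of all genes, and 0 were lower, beside 1.47%. CDKN1A, the cell cycle inhibitor p21, was at a summed 19.3, 29.5 and 30.9, with differences of 0.59 and 0.65 that lie just past 1.5-fold. CCND1, which encodes cyclin D1 and was the highest of this role by single-transcript FPKM, was at a summed 417, 306 and 207. Its differences were -0.45 and -1.01. Of the differentiation genes in this role, named after their values were seen, KRT10 was at a summed 33.4, 31.8 and 32.1 and KRT1 at 1.61, 0.913 and 18.5. IVL went the opposite way to KRT1, at 6.29, 14.5 and 3.24. The level sum of KRT10 hides transcripts that differed with siRNA 2. Their ratios to the control were 1.44 (counting interval 1.32 to 1.58) for KRT10-201 and 0.793 (0.704 to 0.895) for KRT10-202.

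**Figure D5:**
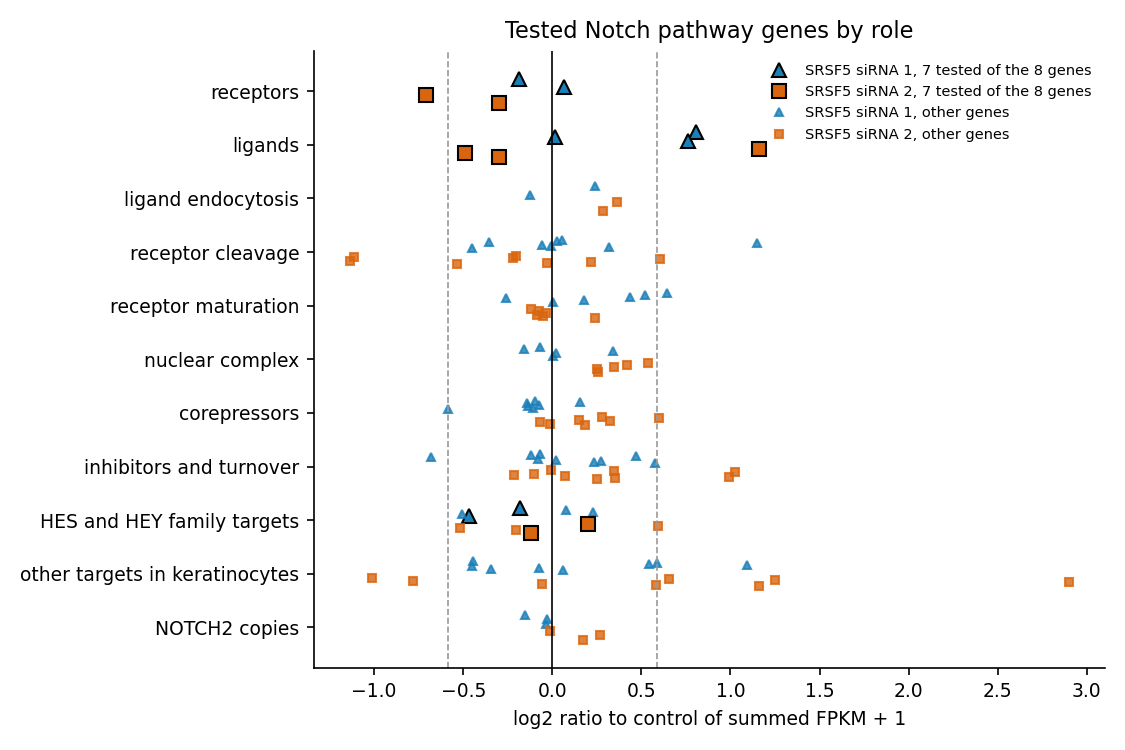
Log2 ratio to the control of summed FPKM + 1 for every tested gene of the lists, by role, triangles for siRNA 1 and squares for siRNA 2, the 7 tested Notch genes of the set outlined, dashed lines at 1.5-fold. Among the receptor cleavage genes 2 squares lie near -1.1 (NCSTN and ADAM17), and among the ligands 1 square lies beyond 1.1 (DLL1).

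Genes with the most similar pair of ratios were looked up among 9870 genes of at least 5 summed FPKM. Likeness was measured over 3 libraries, and 102 genes lay within a distance of 0.1 of NOTCH1, 244 of NOTCH2, 175 of JAG1, 337 of HES1 and 131 of HEY1. The nearest pairs were ELOA and SLFN5 for NOTCH1, CDC20 and NUP155 for NOTCH2, HMMR and FRRS1 for JAG1, C16orf74 and SOCS6 for HES1, and STX10 and SPATA5L1 for HEY1. Fewer genes resembled DLL1 and JAG2, with 8 and 6 within that distance. Nearest to DLL1 were LITAF (0.79 and 1.14) and PLS3 (0.79 and 1.14), and among those near JAG2 was the overlapping AL512356.1 (0.72 and -0.30).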

How the data were processed

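The authors deposited FPKM per transcript, with type, exons, strand and length, per the file headers. The submitters' processing notes name GRCh38.p12, GRCm38 and mm10 without a role. Aligner and counter: not given in the sources used here. Each FPKM times length was a whole multiple of 1 step (tolerance 0.05) in 100% of values, which gave base counts, and 100 bases are called a read equivalent. Of 247012 transcripts, 20343 outside the chromosomes or listed again were dropped. FPKM was summed per gene, with 1 FPKM added before log2.

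Calls used 1.5-fold in both siRNA libraries. The test was limma 3.58.1 (R 4.3.3, trend, Benjamini-Hochberg over 13923 genes). Its code was run on simulated data with less noise than the spread between the siRNAs and with large planted differences. That run says nothing of the power in these libraries. The limma fit has 1 residual degree of freedom per gene, the difference between the siRNAs, and assumes that the lone control varies like them. It also borrows the spread of other genes of similar level, so the SE and p of a gene rest in part on those. P-values measure only the spread between these libraries, which may be technical. Counting intervals are conditional binomial (Clopper-Pearson, 95%) on read equivalents of the highest transcript. The transcript with the most bases was added after the files were seen. The placement of reads with more than 1 match is unknown.

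The members and lists were chosen with earlier results of these data known. Named beside the 8 genes are pathway genes past 1.5-fold in both siRNA libraries, the highest gene of each role, and the 2 genes nearest to each tested member. Some results that this rule or the tests gave are not reported here. Alternatives were the highest or mean transcript, 0.1 FPKM added, median scaling, no filter, 2-fold, a robust fit, 20 read equivalents, and each siRNA library left out.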

Additional observations from a re-analysis of the deposited data

Results flagged for a closer look

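Copies of DLL1 on an alternate scaffold, which entered no comparison, also held a signal above the control library. DLL1-203 was at 2.65 FPKM for control siRNA, 5.31 for siRNA 1 and 7.06 for siRNA 2. DLL1-204 was at 1.58, 3.02 and 3.75. Their ratios to the control, 2.01 and 2.67 for DLL1-203, were close to those of DLL1-201 on chromosome 6. Whether they share reads with it was not tested, and they are not counted as separate evidence.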

How the results depend on the processing

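DLL1 stayed at least 1.5-fold higher in both siRNA libraries with the highest transcript, the mean transcript, 0.1 FPKM added, median scaling and no filter, and its mean log2 difference ranged from 0.81 to 1.16 over 6 alternatives. At 2-fold, 0 of the 7 genes passed. With 1 siRNA library left out, 1 to 2 of the 7 genes were higher and 0 to 1 lower. Of all genes tested, 6.18% to 13.2% were then higher and 5.47% to 10.1% lower. For the other pathway genes the count of higher genes was 0 with the highest transcript, 0 with the mean transcript, 1 with median scaling, 0 at 2-fold and 3 with 0.1 FPKM added. CDKN1A stood at 1.53-fold and 1.60-fold in summed FPKM. Its highest transcript, CDKN1A-208, stood at 1.55-fold and 1.68-fold without the added 1 FPKM. APH1B stood at 3.51-fold and 2.07-fold, and its single transcripts lie below 1 FPKM, where adding 1 FPKM shrinks a ratio by construction. Left-out libraries gave 4 to 9 higher and 2 to 4 lower, or 7.84% to 17.6% and 3.92% to 7.84% of the 51 tested, beside the same shares of all genes. Over all genes tested, where 444 were higher and 205 lower, the higher count was 248 with the highest transcript, 188 with the mean, 713 with 0.1 FPKM and 102 at 2-fold, and 861 to 1834 with a library left out. The lower count was 99 with the mean and 39 at 2-fold, and 762 to 1410 with a library left out. A library left out asks for 1 ratio in place of 2. For the other settings the cause was not tested. The robust limma fit called 3 genes, 0 of them among the Notch genes tested. At an unadjusted p below 0.05 limma gave 365 to 1395 genes over the alternatives, and DLL1 in each but the one without a filter. The ratio of the transcript with the most bases lay within the counting interval of the highest transcript in each of the 8 genes. In NOTCH1, NOTCH2 and DLL1 both are the same transcript, so this was fixed beforehand. In the other genes the transcripts share reads, so it is not separate evidence. The mean differences of NOTCH2, NOTCH3, JAG1, JAG2 and HES1, none of them called, took either sign depending on which siRNA library was left out. No paired analysis was possible because the control has 1 library. NOTCH3 and HEY1 are limited by depth.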

Other observations

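Some pathway genes below the filter were higher with siRNA 2, and were picked after their values were seen. NEURL1B, a neuralized-type ubiquitin ligase for ligands, held 23.3, 55.8 and 146 read equivalents in NEURL1B-201 in the control, siRNA 1 and siRNA 2 libraries, a ratio of 2.52 and 6.74. The related NEURL1 held 4.33, 13.3 and 56 in NEURL1-201. HES5, a HES family target, held 4.5, 7 and 26.5 in HES5-201, with a siRNA 2 log2 ratio of 2.67 (counting interval 1.28 to 4.79). DLL4, a Delta-like ligand, held 2.83, 5.5 and 15.5 in DLL4-201, with a siRNA 2 log2 ratio of 2.56 (0.72 to 4.95). Each rests on few reads and 1 library per siRNA.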
